A study of Mus musculus with 4 samples.

Results

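The antigen presentation genes of the panel were 5 of its 470 genes, namely *H2-Aa*, *H2-Ab1* and *H2-Eb1* of class II and *H2-K1* and *Psmb8* of class I. They were chosen by name and function, and their transcripts were followed through 9785 segmented cells of 3 vagal ganglia sections. The sections came from adult male C57BL/6 mice given *A. alternata* extract at 25 μg/ml intranasally, 50 μl on each of days 0, 3, 6 and 9, and taken 16 hours later. Every section carried this exposure and no section of unexposed mice was analysed here, so the results compare classes of cells within exposed ganglia and say nothing of the exposure. The sources used here do not say whether the 3 sections came from separate mice, so no p-value is known to cover the spread between mice. The edgeR p-values draw on counting error and on a spread between sections estimated partly over all genes together. Very small ones therefore do not measure how well a single gene repeats between sections.

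Class I molecules display peptides from inside the cell to CD8 T cells and are made by most nucleated cells. *H2-K1* encodes the heavy chain of the class I molecule H-2K, and *Psmb8* encodes a catalytic subunit of the immunoproteasome, which cuts proteins into peptides that class I molecules can carry. Class II molecules display peptides from ingested material to CD4 T cells and are typical of macrophages, dendritic cells and B cells. *H2-Aa* and *H2-Ab1* encode the alpha and beta chains of the class II molecule I-A, and *H2-Eb1* encodes the beta chain of I-E. The gene of the I-E alpha chain, *H2-Ea*, is a pseudogene in C57BL/6 mice.

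All 5 genes lie in the major histocompatibility complex of mouse chromosome 17 (GRCm38, GENCODE M21). *H2-K1* spans chr17:33996017-34000347 on the minus strand and *Psmb8* spans chr17:34197721-34201454 on the plus strand. *H2-Ab1* (chr17:34257689-34269419, plus), *H2-Aa* (chr17:34282744-34287823, minus) and *H2-Eb1* (chr17:34305867-34316674, plus) follow as neighbours. The 200 bases before the start of *H2-Aa* and *H2-Eb1*, read from RefSeq promoters on GRCm38.p6, are shown because class II promoters share an X box and a Y box. Capitals mark CCAAT on either strand (ATTGG on the other strand), the core of a Y box, and in *H2-Aa* also TGACG on both strands, which overlap.

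*H2-Aa*, chr17:34287824-34288023, minus strand: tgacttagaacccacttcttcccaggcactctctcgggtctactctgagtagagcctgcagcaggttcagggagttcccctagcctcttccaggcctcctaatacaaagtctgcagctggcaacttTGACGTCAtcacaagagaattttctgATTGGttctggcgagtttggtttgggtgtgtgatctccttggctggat
*H2-Eb1*, chr17:34305667-34305866, plus strand: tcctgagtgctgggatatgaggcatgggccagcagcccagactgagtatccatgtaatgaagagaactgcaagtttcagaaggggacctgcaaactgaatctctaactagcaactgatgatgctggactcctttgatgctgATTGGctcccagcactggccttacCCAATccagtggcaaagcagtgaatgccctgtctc

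CCAAT began 48 bases before the start of *H2-Aa* on the reverse strand, and 59 bases (reverse) and 35 bases (forward) before that of *H2-Eb1*. CCAAT was present on either strand in 29.3% and TGACG in 15.7% of 32851 RefSeq promoters, so the letters alone are common. For *H2-K1*, a stretch of 30 bases further upstream is shown, with GTTTCACT, which began 91 bases before the start, in capitals, letters that resemble the interferon-stimulated response element and were picked with this promoter in view.

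*H2-K1*, chr17:34000420-34000449, minus strand: ccatctccacaGTTTCACTtctgcacctaa

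GTTTCACT was held by 0.584% of the promoters. The *H2-K1* promoter also held CCAAT (reverse, 16 bases before the start) and TGACG (forward, 41 bases before it), nearer the start than the stretch shown, so these letters were not particular to the class II genes. The matches describe sequence and were not tested for function.

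Cells were put in classes by transcripts of other genes. Neurons had at least 5 transcripts of *Snap25*, *Tubb3*, *Scg2* and *Gap43* together (1404 cells). Of the rest, 920 cells had at least 3 of *Car3* and *Pck1*, 804 had at least 2 of *Prx*, 89 had at least 2 of *Eng*, *Kdr*, *Tie1* and *Vwf* (endothelial gate), and 6568 passed no gate. Markers outside the gates had their highest level in the matching class for 4 of 4 fat-like genes in *Car3 Pck1* cells, 3 of 3 Schwann genes in *Prx* cells, 6 of 7 endothelial genes in endothelial-gate cells and 5 of 8 neuron genes in neurons. Ungated cells were a mixed reference. They held these neuron markers at 46637 to 58969 CPM by section (neurons 132848 to 138957). Schwann markers were at 70681.7 to 74980.5 CPM (*Prx* cells 148481 to 160513) and fibroblast markers at 36021 to 38597 CPM. The classes differed in depth, with a median of 87 transcripts per cell in neurons, 21 in *Car3 Pck1* cells, 18 in endothelial-gate cells, 11 in *Prx* cells and 6 in ungated cells. The sums per section and class held from 389 transcripts in endothelial-gate cells to 72180 in neurons. Depth and makeup differed so much that comparisons were made on 3 scales. These were TMM factors (the main test), the class total alone, and the count per cell.

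*H2-K1* was the eighth most abundant gene of the panel, with 5673 transcripts, and it was the member that varied most clearly between classes. Its level, in CPM, its count divided by all transcripts of that section and class, was 58909, 52890 and 58726 in *Car3 Pck1* cells of sections 1 to 3. In endothelial-gate cells it was 43702, 46211 and 45685 CPM, and in ungated cells 31372, 26712 and 32590 CPM. Neurons held 15121, 16160 and 16209 CPM, and *Prx* cells 13245, 16575 and 14813 CPM. The 3 sections of *Car3 Pck1* cells lay above all sections of every other class on this scale, while neurons and *Prx* cells overlapped. How many panel genes had such a gap was not computed.

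**Figure D1:**
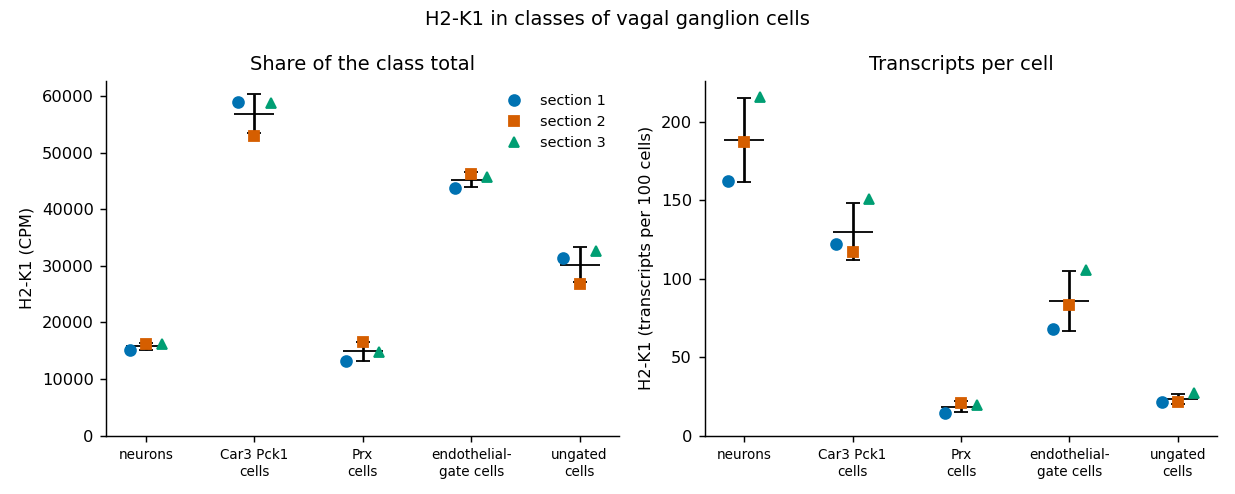
*H2-K1* in 5 classes of cells, as CPM of the class total (left) and as transcripts per 100 cells (right), with 1 point per section, bars at the mean and whiskers of 1 SD (n = 3 sections). *Car3 Pck1* cells led at 56842 CPM, and neurons led per cell at 188 transcripts per 100 cells.

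Against ungated cells, *H2-K1* was higher in *Car3 Pck1* cells on all 3 scales. The log2 fold change was 1.80 ± 0.16 (SE, edgeR adjusted p = 8.3e-27) with TMM, 0.91 ± 0.11 (edgeR adjusted p = 1.3e-16) with totals alone and 2.48 ± 0.16 (edgeR adjusted p = 1.4e-50) per cell. It was higher in 3 of 3 sections, and over 19 alternative settings it ranged from 0.91 to 3.10, always in this direction and called in 18. *Psmb8* rose beside it by 1.27 ± 0.47 with TMM (edgeR adjusted p = 0.017), but its totals-alone value of 0.38 did not pass (edgeR adjusted p = 0.42). Per cell *Psmb8* was called higher (1.92 ± 0.47, edgeR adjusted p = 2.1e-04). Section 3 decided the TMM call, since without it the value was 0.66 (edgeR adjusted p = 0.48). *Psmb8* stood at 803, 678 and 1545 CPM in *Car3 Pck1* cells and at 911, 716 and 834 CPM in ungated cells, so the sections overlapped.

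Of the 3 class II genes, *H2-Aa* and *H2-Ab1* were lower in *Car3 Pck1* cells with TMM. *H2-Aa* was at 803, 848 and 773 CPM there against 2669, 3652 and 2874 CPM in ungated cells. *H2-Ab1* was at 321, 678 and 331 CPM against 2799, 2148 and 1854 CPM. The sections of both genes did not overlap in CPM. The share of all panel genes without such overlap was not computed, for this or any other comparison. The TMM values were, for *H2-Aa*, -1.02 ± 0.42 (edgeR adjusted p = 0.032) and, for *H2-Ab1*, -1.48 ± 0.51 (edgeR adjusted p = 0.011), and neither passed per cell (edgeR adjusted p = 0.59 and 0.26). With totals alone both were called lower (-1.91 and -2.36, edgeR adjusted p = 5.1e-06 and 3.1e-06), beside a median of -2.25 for all genes. The TMM call of *H2-Aa* was lost without any 1 of the sections (-0.88 to -1.12) and that of *H2-Ab1* without section 1 or section 3. *H2-Eb1* had 6, 0 and 3 transcripts and did not pass (-0.17 ± 0.60, edgeR adjusted p = 0.82). With TMM, 4 of the 5 members were called here, where 47% of all 368 genes tested were called, 11.7% higher and 35.3% lower, and the median of all genes was -1.37. With totals alone 71.5% and per cell 37.8% of all genes were called.

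For neurons, the direction of *H2-K1* depended on the scale. It was called higher than in ungated cells with TMM (0.55 ± 0.16, edgeR adjusted p = 9.0e-04) and per cell (3.01 ± 0.16, edgeR adjusted p = 2.5e-74), and lower with totals alone (-0.93 ± 0.10, edgeR adjusted p = 1.4e-19). Without section 2 the TMM value was 0.47 and did not pass (edgeR adjusted p = 0.066). The median of all genes moved with the scale too, at -0.50 with TMM, -1.93 with totals alone and 1.93 per cell. *H2-K1* lay above this median on all 3 scales. Neurons carried 162, 187 and 216 *H2-K1* transcripts per 100 cells and ungated cells 21.7, 21.2 and 27.2. When each cell with at least 10 transcripts was thinned to 10, 16.5% ± 0.55 (SD, n = 3 sections) of neurons held *H2-K1*, against 24.2% ± 1.73 of ungated cells, 42.9% ± 3.79 of *Car3 Pck1* cells, 35.1% ± 1.19 of endothelial-gate cells and 13.2% ± 3.41 of *Prx* cells. Before thinning these shares were 76.2%, 19.0%, 66.5%, 47.9% and 16.2%, and thinning left out 4895 ungated cells, 325 *Prx* cells, 55 *Car3 Pck1* cells, 22 endothelial-gate cells and no neurons. *Psmb8*, at 503, 416 and 471 CPM in neurons, followed the same pattern, with 0.65 ± 0.35 with TMM (edgeR adjusted p = 0.084), -0.81 ± 0.35 with totals alone (edgeR adjusted p = 0.026) and 3.09 ± 0.34 per cell (edgeR adjusted p = 7.8e-19).

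**Figure D2:**
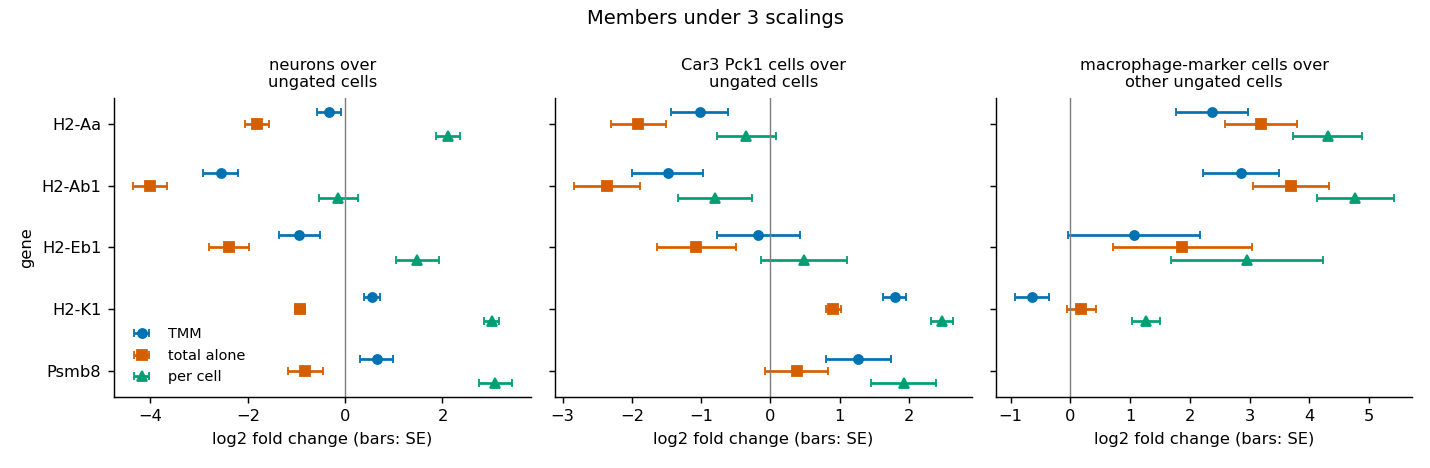
Log2 fold changes of the members under 3 scalings in neurons and *Car3 Pck1* cells, each over ungated cells, and in macrophage-marker cells over other ungated cells, with bars of 1 SE. *H2-K1* lay above 0 on all scales in *Car3 Pck1* cells and on both sides of 0 in neurons, and *Psmb8* is left out of the right panel because it had 0 transcripts in macrophage-marker cells.

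*H2-Ab1* was the member lowest in neurons relative to ungated cells. It was at 109, 159 and 125 CPM in neurons and at 2799, 2148 and 1854 CPM in ungated cells. These did not overlap, but the share of all genes without overlap was not computed. The log2 fold change was -2.56 ± 0.37 with TMM (edgeR adjusted p = 1.4e-11) and -4.01 ± 0.35 with totals alone (edgeR adjusted p = 3.8e-29), and it was negative in 19 of 19 alternatives and called in 17. Per cell it was -0.14 ± 0.40 and did not pass (edgeR adjusted p = 0.76), with 1.56 ± 0.35 transcripts per 100 neurons and 1.73 ± 0.19 per 100 ungated cells (SD, n = 3 sections).

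*H2-Aa*, the partner chain, was called in neurons in opposite directions on 2 of the scales. It was at 765, 872 and 928 CPM, and its TMM value of -0.33 ± 0.25 did not pass (edgeR adjusted p = 0.22). Per cell it was called higher in neurons (2.11 ± 0.25, edgeR adjusted p = 1.3e-16), and with totals alone lower (-1.81 ± 0.25, edgeR adjusted p = 3.5e-12). The medians of all genes were 1.93 per cell and -1.93 with totals alone. *H2-Aa* thus lay near the median of all genes on all 3 scales, and *H2-Eb1* lay below it on all 3. *H2-Eb1*, at 131, 159 and 194 CPM, was called lower with TMM (-0.94 ± 0.42, edgeR adjusted p = 0.036), a call lost without any 1 of the sections (edgeR adjusted p = 0.12 to 0.17), and higher per cell (1.49 ± 0.44, edgeR adjusted p = 0.0012). With TMM, 3 of 5 members were called in neurons, where 70.4% of all genes were called (31.2% higher and 39.1% lower) and the median of all genes was -0.50. With totals alone 5 of 5 members were called, all lower, where 85.1% of all genes were called, and per cell 4 of 5 were higher, where 71.2% were called.

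The pair of I-A chains was set side by side as the share of *H2-Aa* in the transcripts of both, a quantity that needs no scaling between classes. In neurons it was 86.9% of 168 transcripts (95% exact interval 80.8 to 91.6), at 87.5%, 84.6% and 88.2% by section. In ungated cells it was 57.7% of 267 (51.5 to 63.7), at 48.8%, 63.0% and 60.8%. All 3 sections of neurons lay above all 3 of ungated cells. *Prx* cells were at 76.0% of 25 (54.9 to 90.6), with 2, 3 and 1 transcripts of *H2-Ab1* by section. Their sections, at 71.4%, 75.0% and 83.3%, lay above all sections of ungated cells and below all of neurons, on these few transcripts. *Car3 Pck1* cells were at 65.4% of 26 (44.3 to 82.8), and their sections, at 71.4%, 55.6% and 70.0%, lay below those of neurons and overlapped those of ungated cells. Endothelial-gate cells were at 57.1% of 7 (18.4 to 90.1), with no transcript of either chain in section 1, 100% in section 2 and 25% in section 3. The intervals cover counting error only, no test of this share was made, and how well each probe set detects its gene is not known, so the share compares classes and not the amounts of the chains.

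**Figure D3:**
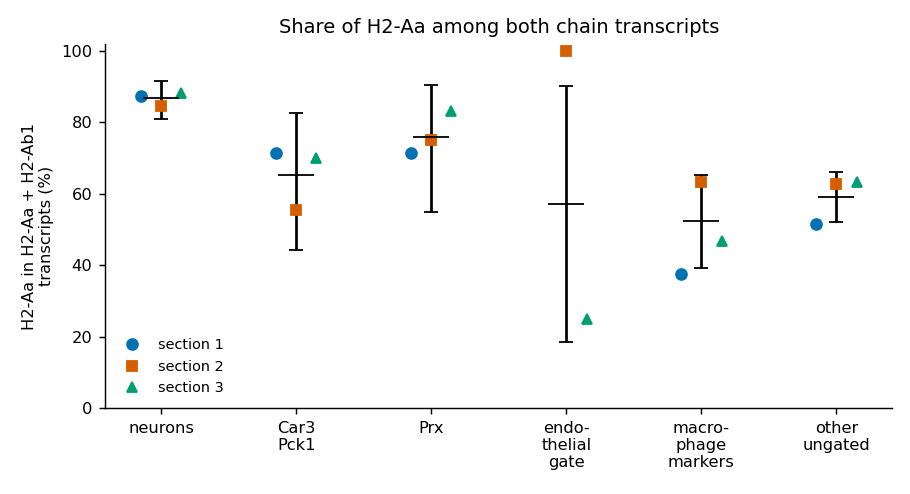
Share of *H2-Aa* among *H2-Aa* and *H2-Ab1* transcripts in each class (percent), with the pooled share as a bar, its 95% exact interval as whiskers and 1 point per section where it had transcripts. Neurons lay at 84.6% to 88.2% by section, and ungated cells, here split by macrophage markers, lower.

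Counted by cells, class II in neurons was mostly *H2-Aa*. A class II transcript was present in 166 of 1404 neurons, of which 129 held *H2-Aa* and 19 held *H2-Ab1*, and 4 held both. In ungated cells 245 of 6568 cells held a class II transcript, with 139 for *H2-Aa*, 94 for *H2-Ab1* and 18 for both. Thinned to 10 transcripts, 1.5% ± 0.17 of neurons and 4.88% ± 0.17 of ungated cells held class II (SD, n = 3 sections), while unthinned shares ran the other way, at 11.6% ± 2.37 and 3.73% ± 0.12. *Prx* cells were at 3.04% ± 2.12 thinned and 2.96% ± 1.65 unthinned. Markers of macrophages were also present in neurons, where the 8 gate genes, none at 0, summed to 1690 to 1804 CPM by section, against 10245 to 11888 CPM in ungated cells. Whether class II transcripts of neurons came from neighbouring cells was not tested.

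Within the ungated cells, *H2-Aa* and *H2-Ab1* were higher in those with macrophage transcripts. The 82 cells with at least 2 transcripts of *Ctss*, *Mpeg1*, *Laptm5*, *Cybb*, *Lst1*, *Ms4a6b*, *Ms4a6c* and *Ms4a7*, a gate that used no member, were 1.25% of the ungated cells. They held 32 of the 154 *H2-Aa* and 29 of the 113 *H2-Ab1* transcripts of ungated cells. *H2-Aa* was at 16854, 43084 and 12987 CPM in them and at 2332, 2366 and 2615 CPM in other ungated cells. *H2-Ab1* was at 28090, 24943 and 14842 CPM against 2199, 1405 and 1521 CPM. Neither gene overlapped between the groups, though the share of all genes without overlap was not computed, and section 2 was high for *H2-Aa*.

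**Figure D4:**
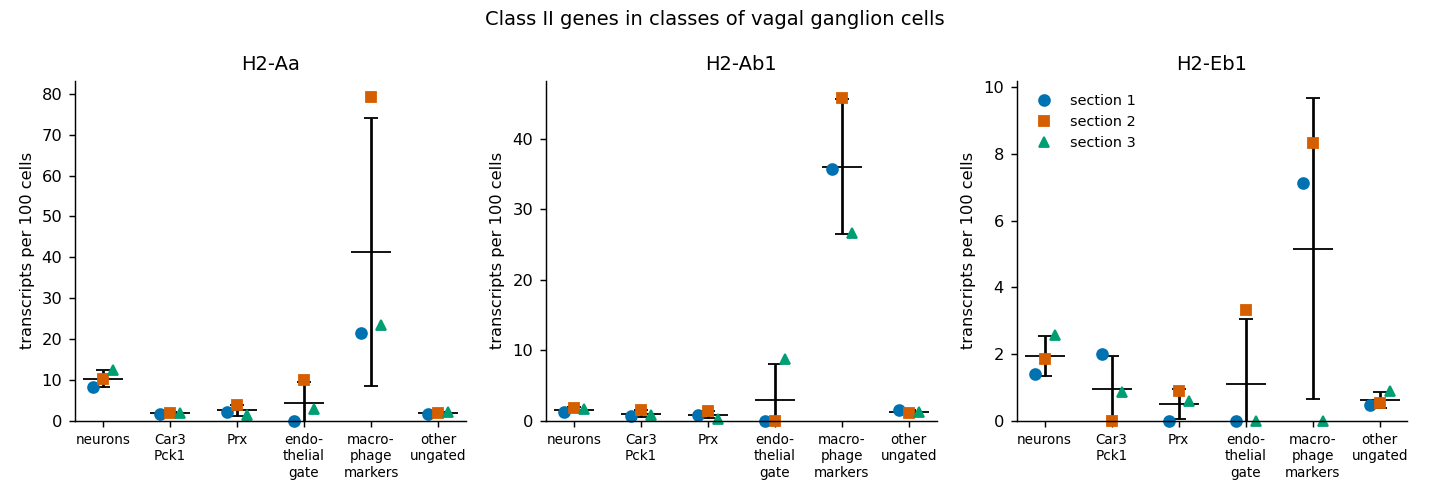
Class II genes in 6 classes of cells as transcripts per 100 cells, with 1 point per section, bars at the mean and whiskers of 1 SD (n = 3 sections), each panel on its own axis. Macrophage-marker cells were highest for *H2-Aa* at 41.3 and *H2-Ab1* at 36.1, and neurons followed for *H2-Aa* at 10.2.

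*H2-Aa* and *H2-Ab1* were called higher in macrophage-marker cells on all 3 scales. With TMM the log2 fold changes were 2.37 ± 0.60 (edgeR adjusted p = 0.0018) and 2.86 ± 0.64 (edgeR adjusted p = 2.5e-04), and with totals alone 3.20 ± 0.60 and 3.69 ± 0.64. Both genes were higher in 3 of 3 sections and in 18 of 18 alternatives. Neither passed when section 2 was left out (*H2-Aa* 1.71, edgeR adjusted p = 0.60; *H2-Ab1* 2.60, edgeR adjusted p = 0.078) or section 3 (2.62, edgeR adjusted p = 0.15; 2.91, edgeR adjusted p = 0.11). Of the 279 genes tested, 5.38% were called, 1.08% higher and 4.3% lower (4.3% in all with totals alone and 3.94% per cell), and the only other gene called higher with TMM was *Retnla* (2.74 ± 0.53), a secreted product of alternatively activated macrophages. Of 11 macrophage markers outside the gate, 9 were tested, and 0 were called with TMM or totals alone and 2 were higher per cell. Together they summed to 24119 to 53371 CPM by section, against 11394 to 13931 CPM in other ungated cells, and 3 had 0 transcripts in macrophage-marker cells. In simulated sums of these sizes, unchanged genes had a median of -1.25 with TMM and -0.72 with totals alone, where 0 was put in. The simulation raised the class total, which pushes unchanged genes down with totals alone.

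The other members did not pass with TMM. *H2-Eb1* had 2, 2 and 0 transcripts in macrophage-marker cells (1.07 ± 1.10, edgeR adjusted p = 0.59). *H2-K1* was at 47753, 22676 and 35251 CPM there and at 30984, 26843 and 32522 CPM in other ungated cells, which overlapped, and its difference changed sign between TMM (-0.65, edgeR adjusted p = 0.18) and totals alone (0.18, edgeR adjusted p = 0.79) and was called per cell (1.27, edgeR adjusted p = 1.5e-05). *Psmb8* had 0 of 1336 transcripts, which allows up to 2246 CPM, above the 843 CPM of other ungated cells. It did not pass in edgeR (adjusted p = 0.44) and was called lower by limma (adjusted p = 0.0017). The cell with the most class II transcripts lay in section 2 and carried 6 of *H2-Aa* and 6 of *H2-Ab1* among 44 transcripts, with a macrophage gate sum of 6. Most class II transcripts of ungated cells were outside the gate, where 210 of 6486 cells held at least 1.

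In *Prx* cells, which had Schwann genes, *H2-K1* was lower than in ungated cells with TMM (-0.80 ± 0.20, edgeR adjusted p = 7.4e-04) and with totals alone (-1.03 ± 0.16, edgeR adjusted p = 3.2e-09), and it did not pass per cell (-0.35 ± 0.19, edgeR adjusted p = 0.29). The sections did not overlap in CPM, but the share of all genes without overlap was not computed. *H2-Ab1*, at 779, 1036 and 221 CPM on 6 transcripts, was called lower with TMM (-1.64 ± 0.59, edgeR adjusted p = 0.040), but this call was lost without any 1 of the sections (edgeR adjusted p = 0.099 to 0.39), and that of *H2-K1* without section 1 (-0.62, edgeR adjusted p = 0.072). These 2 of 5 members compare with 16% of all genes called, 3.26% higher and 12.8% lower. With totals alone 24.5% and per cell 10.1% of all genes were called. *H2-Aa* (-0.43, edgeR adjusted p = 0.56), *H2-Eb1* and *Psmb8* did not pass on any of the 3 scales, and *Psmb8* had 3 transcripts in all.

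Endothelial-gate cells had high *H2-K1* in CPM, and its differences from other classes depended on the scale. With TMM 0 of 5 members passed against ungated cells or against neurons, where 7.34% (2.72% higher and 4.62% lower) and 30.4% (8.15% higher and 22.3% lower) of all genes passed, and 0 members had an unadjusted p under 0.05 in either. *H2-Ab1*, on 3 transcripts that were all in section 3, was called lower than ungated cells with limma (-6.92, adjusted p = 0.041). It was called higher than neurons with DESeq2 (2.59, adjusted p = 0.034) and with totals alone (3.68, edgeR adjusted p = 0.026). *H2-K1* was above ungated cells in 3 of 3 sections, at 0.32 ± 0.24 with TMM (edgeR adjusted p = 0.61) and 1.88 ± 0.25 per cell (edgeR adjusted p = 2.9e-12). Against neurons it was -0.24 ± 0.23 with TMM (edgeR adjusted p = 0.55), 1.51 ± 0.23 with totals alone (edgeR adjusted p = 1.5e-09) and -1.13 ± 0.22 per cell (edgeR adjusted p = 1.4e-06). Against ungated cells 6.25% of all genes were called with totals alone and 12.5% per cell, and against neurons 22.6% and 35.3%. Class II summed to 0, 4 and 4 transcripts, and *Psmb8* to 2, 1 and 1.

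The order of levels in CPM differed between class I and class II, and which neighbours differed depended on the scale. For *H2-K1* the order ran from *Car3 Pck1* cells through endothelial-gate, ungated and neurons to *Prx* cells, and with totals alone only ungated cells and neurons differed among these neighbours (edgeR adjusted p = 1.4e-19; the others 0.093 to 0.66). With TMM this step was turned, as given above, *Car3 Pck1* cells were above endothelial-gate cells (1.48, edgeR adjusted p = 2.3e-09, where 23.6% of all genes were called) and *Prx* cells were below neurons (-1.35, edgeR adjusted p = 3.5e-11, where 35.3% were called). *Psmb8* ran in CPM from endothelial-gate through *Car3 Pck1* and ungated cells to neurons and *Prx* cells, and with totals alone only ungated cells and neurons differed (edgeR adjusted p = 0.026). With TMM that pair did not pass, while *Car3 Pck1* cells were above ungated cells and *Prx* cells below neurons (-1.85, edgeR adjusted p = 0.049).

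*H2-Aa*, *H2-Ab1* and *H2-Eb1* were each highest in ungated cells in CPM, then in endothelial-gate cells. With totals alone, neighbours differed only between *Prx* cells and neurons for *H2-Aa* (1.14 higher in *Prx* cells, edgeR adjusted p = 0.032) and between *Car3 Pck1* cells and neurons for *H2-Ab1* (edgeR adjusted p = 0.035), where 44.3% and 52.2% of all genes were called. Neither pair passed with TMM (edgeR adjusted p = 0.86 and 0.18). Per cell, where 60.1% of all genes were called between *Prx* cells and neurons, *H2-Aa* was lower in *Prx* cells (-2.12, edgeR adjusted p = 5.4e-08), the opposite of totals alone, and *H2-Ab1* did not pass between *Car3 Pck1* cells and neurons (edgeR adjusted p = 0.35). Per cell *H2-Eb1* was also lower in *Prx* cells than in neurons (-1.98, edgeR adjusted p = 0.016) and *H2-Aa* lower in *Car3 Pck1* cells than in neurons (-2.46, edgeR adjusted p = 2.7e-10, where 67.4% of all genes were called). For *Prx* cells against neurons the medians of all genes were -2.19 per cell and 0.98 with totals alone. For *Car3 Pck1* cells against neurons the median was -2.69 per cell, so these values lay near the shift of the whole panel. Per cell all 4 pairs of *H2-K1* neighbours differed, with *Car3 Pck1* cells 0.59 above endothelial-gate cells (edgeR adjusted p = 0.031, where 26.6% of all genes were called) and *Prx* cells below neurons (-3.36).

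Over the 15 sums of section and class, the panel genes most like *H2-K1* in log2 CPM were *Rgs5* (Pearson r = 0.91), *Aqp7* (0.82) and *C3* (0.81). For *Psmb8* they were *Aqp1* (0.84), *Tnfsf10* (0.82) and *Mef2c* (0.81). Among class II genes, *H2-Aa* was most like *Il34* (0.92), *Ctss* (0.91) and *Prss23* (0.89), *H2-Ab1* like *Mylk*, *Sox9* and *Gfap* (0.86 to 0.87), and *H2-Eb1* like *Ccl6* (0.86), *Cybb* (0.83) and *Mamdc2* (0.82). *Ctss* encodes cathepsin S, a protease that trims the invariant chain of class II molecules, and *Cybb* is a phagocyte oxidase subunit. *H2-K1* and *Psmb8* had r = 0.71 with each other, and *H2-Aa* and *H2-Ab1* 0.48. These values describe 15 sums that share sections and depth.

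Of 10 other genes of antigen presentation and its interferon response, 9 were tested between the 5 classes, and in neurons against ungated cells 0 were higher, 4 lower and 5 not called with TMM, with a median of -0.87 beside -0.50 for all genes, of which 39.1% were lower. With totals alone 9 of 9 were lower, and per cell 6 were higher and 0 lower, so their direction depended on the scale. The 4 genes lower with TMM were *Ctss* (-1.56), the T cell attractants *Cxcl9* (-1.45) and *Ccl5* (-1.70), and *Il15* (-2.18), a cytokine of memory T cells. In *Car3 Pck1* cells *Rsad2*, an antiviral interferon-induced gene, was higher with TMM (1.24 ± 0.29, edgeR adjusted p = 6.4e-05), but it did not pass with totals alone (0.36, edgeR adjusted p = 0.23). Its sections overlapped, at 2247, 3899 and 4636 CPM against 3385, 3008 and 2364 CPM in ungated cells. *Ctss* (-0.94) was lower there with TMM but did not pass per cell (edgeR adjusted p = 0.68), and *Cxcl10*, with 0 transcripts, was called lower on all 3 scales. With TMM, 1 of the 9 genes was higher there, 2 were lower and 6 were not called. Their median was -0.23 beside -1.37 for all genes, of which 11.7% were higher and 35.3% lower. Of 7 genes of T cells and their partners, 5 were tested, and 4 were lower in neurons with TMM (*Cd8a*, *Ctla4*, *Btla* and *Tnfsf4*), beside the 39.1% of all genes. With totals alone 5 were lower, and per cell 2 were higher and 0 lower. The T cell markers *Cd3e*, *Cd3d*, *Cd8a* and *Ctla4* had 52 transcripts together in 6568 ungated cells and 12 in 1404 neurons. The B cell genes *Cd79a* (-2.96) and *Tnfrsf13c* (-2.80) were lower in *Car3 Pck1* cells with TMM, where 35.3% of all genes were lower.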

How the data were processed

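Xenium in situ hybridisation counts of 3 vagal ganglia sections were analysed, and the lung section was not analysed here. The deposited table holds raw counts, whole numbers of transcripts per gene and cell, which the authors made by decoding probe signals and assigning them to segmented cells, so a cell can hold transcripts of its neighbours. No doublet caller was run. Control probes, control codewords and blank codewords together gave 102 events in 9785 cells, 0 columns were left unmapped, and 0 cell names were shared between sections.

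Counts were summed per section and class, and a cell took the first gate it passed (144 passed more than 1). Gate genes were left out of the tests. Genes with at least 20 transcripts were tested in edgeR 4.0.16 (R 4.3.3) by its quasi-likelihood test, with class and section in the model and Benjamini-Hochberg adjustment at 0.05 over all genes tested. Classes of a section share its tissue, so the section was a block. Limma 3.58.1 and DESeq2 1.42.0 were alternatives. Levels are CPM of the class total with the SD over 3 sections, limits for 0 counts are 3 counts of the total, and likeness used log2(CPM + 100). Panel genes were matched to GENCODE by Ensembl identifier (470 of 470), and promoters came from RefSeq.

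The planned scaling was TMM on each sum, and it is the main one here. After results were seen, 5 other ways to compute TMM factors and a per-cell scaling were tried, because simulated unchanged genes were shifted by TMM in small classes (median log2 -1.55 in endothelial-gate and -1.25 in macrophage-marker cells, with 6.49% and 8.86% of them called, against 0.0022 in neurons, -0.10 in *Car3 Pck1* cells and -0.42 in *Prx* cells). With totals alone the medians were -0.99 in endothelial-gate and -0.72 in macrophage-marker cells. The simulation raised the class total, which pushes unchanged genes down on this scale. In neurons, *Car3 Pck1* cells and *Prx* cells the totals-alone medians were -0.39, -0.12 and -0.51. For a time during the work the factors from pooled class sums served as the main scaling. The planned one was then restored, since the choice between them had been made with the members' results in view, and every scaling tried is reported as an alternative.

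The members and gene lists were chosen with earlier results of these data known. The text names the members, the 3 genes most like each, and list genes called or with the highest counts. *Retnla* was named after its value was seen. The list of B cell genes is not reported here in full.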

Additional observations from a re-analysis of the deposited data

How the results depend on the processing

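For the members, 553 values under alternatives were computed, of which 394 kept the direction and the side of the threshold, 73 kept only the direction and lost the call, 20 gained a call and 66 changed sign. These data do not single out a right scaling. In simulated sums of neurons, totals alone called 14.0% of unchanged genes (median -0.39) and TMM called 1.75% (median 0.0022). The simulation raised and lowered equal numbers of genes by equal log2 steps, which raises the class total. That pushes unchanged genes down with totals alone, so these values cannot decide between totals alone and TMM. Equal numbers need not hold for the real counts, and the per-cell scale was not simulated. In the macrophage split the simulation left 79 genes unchanged, whereas 5.38% of 279 genes were called in the data. Endothelial-gate and macrophage-marker cells held few transcripts, and *H2-Eb1* and *Psmb8* were limited by depth in all classes but neurons and ungated cells.

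Genes called numbered 259 for neurons, 173 for *Car3 Pck1* cells, 59 for *Prx* cells and 27 for endothelial-gate cells against ungated cells, 112 for endothelial-gate cells against neurons and 15 in the macrophage split. With 1 section left out they were 182 to 216, 121 to 140, 27 to 39, 13 to 20, 79 to 91 and 6 to 13. Without the replicate block, which treats sections as unpaired, the macrophage split had 39 and the other counts stayed within 1.5 times. Counts that moved further were as follows. In neurons, filterByExpr gave 135 and limma 8. In *Car3 Pck1* cells, DESeq2 gave 115, totals alone 263 and limma 103. In *Prx* cells, DESeq2 gave 20, totals alone 90, the per-cell scale 37, filterByExpr 38, limma 16, and TMM factors from filterByExpr genes 34, from pooled sums over genes with at least 100 transcripts 39 and from pooled sums over genes with at least 20 transcripts 38. In endothelial-gate cells against ungated cells, no filter gave 47, a neuron gate of 10 gave 46, the per-cell scale 46 and limma 153. In the macrophage split, DESeq2 gave 7, limma 74 and pooled factors over genes with at least 100 transcripts 9.

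The section mean of the *H2-K1* ratio to ungated cells, 0.53 in neurons and 1.89 in *Car3 Pck1* cells, was 0.49 to 0.55 and 1.84 to 1.93 with 1 section left out. It was 0.62 and 2.94 without gate genes in the totals, 8.08 and 5.56 per cell, and in *Car3 Pck1* cells 2.03 over cells with at least 10 transcripts. For class II together the ratios of 0.19 and 0.27 were 0.17 to 0.20 and 0.24 to 0.29 with 1 section left out, 0.22 and 0.42 without gate genes in the totals, and 2.86 and 0.80 per cell, a reversal in neurons.

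Signs changed as follows on the log2 scale, and the cause was not tested. In neurons, *H2-K1* was -0.93 with totals alone, -0.71 with factors from genes with at least 200 transcripts and -0.063 with filterByExpr genes, as filter or for the factors. *Psmb8* was -0.81 and -0.60 under the first 2 of these, and per cell *H2-Aa* was 2.11 and *H2-Eb1* 1.49. In *Car3 Pck1* cells, *H2-Aa* was 0.22 with pooled factors (at least 20 transcripts) and 0.26 with factors from genes with at least 200. *H2-Eb1* there was 0.69 with DESeq2, 0.57, 1.06, 0.39 and 1.04 with factors from filterByExpr genes, genes with at least 200, pooled at least 100 and pooled at least 20, 0.67 with a neuron gate of 10, 0.29 with no filter, 0.48 per cell, and -1.30 to 0.28 with 1 section left out. In *Prx* cells, *H2-Aa* was 0.18 with DESeq2, 0.19 with filterByExpr genes, as filter or for the factors, 0.51 with factors from genes with at least 200, 0.058 with pooled factors (at least 20) and 0.14 over cells with at least 10 transcripts. *H2-Eb1* (0.019) and *H2-K1* (0.15) turned with factors from genes with at least 200.

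In endothelial-gate against ungated cells, *H2-K1* was -0.24 with a neuron gate of 10 and -0.46 with no filter. Per cell *H2-Aa* was 0.89, *H2-Ab1* 0.95 and *H2-Eb1* 0.68, and with 1 section left out *H2-Ab1* ran from -7.24 to 0.10 and *H2-Eb1* from -6.16 to 0.14. Against neurons, *H2-Aa* was 0.28 with DESeq2, 0.017 with filterByExpr genes, as filter or for the factors, 0.9998 with factors from genes with at least 200, 0.56 with pooled factors (at least 100), 1.41 with totals alone and -1.62 to 0.089 with 1 section left out. *H2-K1* was 0.36, 0.10, 1.08, 0.65 and 1.51 under the first 5 of these. *H2-Ab1* was -4.29 with limma and -4.58 to 2.79 with 1 section left out. *H2-Eb1* was -0.042 with pooled factors (at least 20), -5.05 with limma, -0.999 with a neuron gate of 10, -0.75 with no filter, -0.81 per cell and -5.21 to 1.05 with 1 section left out. *Psmb8* was -0.40, -0.27 and -0.30 with a neuron gate of 10, no filter and per cell, and -0.049 to 1.03 with 1 section left out. In the macrophage split, *H2-K1* was 0.88, 0.49 and 0.084 with factors from genes with at least 200, pooled at least 100 and pooled at least 20, 0.18 with totals alone and 1.27 per cell, and *H2-Eb1* was -2.16 with limma.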
